A study of Brassica oleracea var. italica with 2 samples.

Results

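Transcription factor genes of the MYB, NAC, WRKY, bZIP, HB, bHLH, ERF, TCP, GATA, HSF and DOF families were compared between 2 arrays of broccoli seedlings. Members were all probe sets annotated with a single gene whose symbol starts with one of these family names, with or without A or AT before it, followed by a number, which a hyphen or a letter may precede (as in MYBC1). The choice uses names alone and no measured value. It gave 28 genes of 13350 with a symbol of their own: 14 bZIP, 6 WRKY and 5 bHLH genes, and 1 gene each of the MYB, NAC and TCP families. No gene of the other 5 families carries such a symbol in the annotation used here. All 11 families are larger in Arabidopsis than the members named here, so the counts below speak of these genes and not of whole families. Each of the 28 genes had 1 probe set.

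The antisense array held RNA of whole seedlings of broccoli (Brassica oleracea var. italica, cultivar Elegance) carrying 35S::antisenseBoEMF2.1, and the vector array held RNA of whole seedlings of the same cultivar carrying the empty binary vector pCAMBIA1380. All seedlings were 11 days old, and the 35S promoter drives transcription in most plant tissues. Each group had 1 sample, which leaves every value without a replicate check, so no test was run and "higher" and "lower" speak of these 2 arrays alone. The genotype label of the antisense sample names the 35S construct without the word antisense, and its group was taken from the title, which agrees in this with the source name. How many seedlings or transgenic lines made up a sample is not given in the sources used here.

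BoEMF2.1, the targeted gene, is related to EMF2 of Arabidopsis, which encodes a subunit of a Polycomb complex that places a repressive methyl mark on histones. Many of the genes under that mark in Arabidopsis encode transcription factors. The families described here differ in how their proteins bind DNA or pair. WRKY proteins bind the W-box and act mostly in defence, senescence and nutrient responses. bZIP proteins pair through a leucine zipper and serve stress and nutrient signalling, and bHLH proteins pair through a helix-loop-helix. Roles named below are those known in Arabidopsis.

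The values are MAS5 signals, linear intensities that the authors scaled to a common trimmed mean. The arrays carry Arabidopsis probes, so a broccoli transcript can read low through sequence difference as well as through low abundance, and 1 probe set may bind several broccoli copies of a gene. A ratio is log2 of antisense over vector signal for the same probe set. A signal counted as measured when it reached a floor, set at the median of all probe sets other than controls, which was 302.7 on the antisense array and 317.6 on the vector array. Where a gene reached the floor on 1 array alone, its ratio was taken against the other array's floor and is a bound, written "at least". In whole seedlings, fewer cells expressing a gene and less RNA per cell cannot be told apart. The annotation names no probe set for EMF2, so the targeted gene was not checked here. Of the shoot markers, 7 of 12 had a probe set annotated with that gene alone, and all 7 were measured. Their summed signal was 47971.5 on the antisense array and 52520.1 on the vector array. That order rests on PSAN (4622.5 on the antisense array and 13222.1 on the vector array): without it the sums are 43349 on the antisense array and 39298 on the vector array, and 3 of the 7 markers were higher on the antisense array. Of the root markers, 3 of 8 had such a probe set, and all 3 were measured. Their summed signal was 4097.2 on the antisense array and 2835.3 on the vector array. The root hair expansin genes EXPA7 (1.63) and EXPA18 (0.80) were higher on the antisense array and PYK10 (-0.44) was lower. Their part in the ratios below was not tested. Of the flower markers, 1 of 6, UFO, had such a probe set, with 324 on the antisense array and 240.1 on the vector array. Markers without one may still be on the array, under probe sets that are unnamed or shared by several genes.

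Of the 28 genes, 16 were measured: 11 on both arrays, 3 on the antisense array alone and 2 on the vector array alone. The measured share was 57.1%, against 54.5% of all 13350 genes. By family, 5 of 6 WRKY, 4 of 5 bHLH, 6 of 14 bZIP and the single TCP gene were measured, while the MYB and NAC genes were below the floor on both arrays.

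No measured member reached 2-fold in either direction. Over all 7270 measured genes, 3.12% were 2-fold or more higher and 3.93% were 2-fold or more lower, so a count of 0 among 16 members is near that background. The median ratio of the 16 members was -0.03, against -0.05 over all measured genes, and the members ran from -0.85 to 0.99. By their own signals 7 were higher and 9 lower on the antisense array. Of all 7270 measured genes 3453 were higher and 3816 lower in this way, so no lean was drawn from that count. At 1.5-fold, 5 members were higher, where 11.2% of all measured genes were, and 1 was lower, where 15% of all measured genes were. The spread of a single ratio, estimated from 31 genes with 2 probe sets each, had an SD of 0.44. It covers probe differences within these arrays and not variation between plants. Of the 11 members measured on both arrays 4 lay beyond that SD, or 36.4%, against 37.8% of the 4947 genes measured on both.

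**Figure D1:**
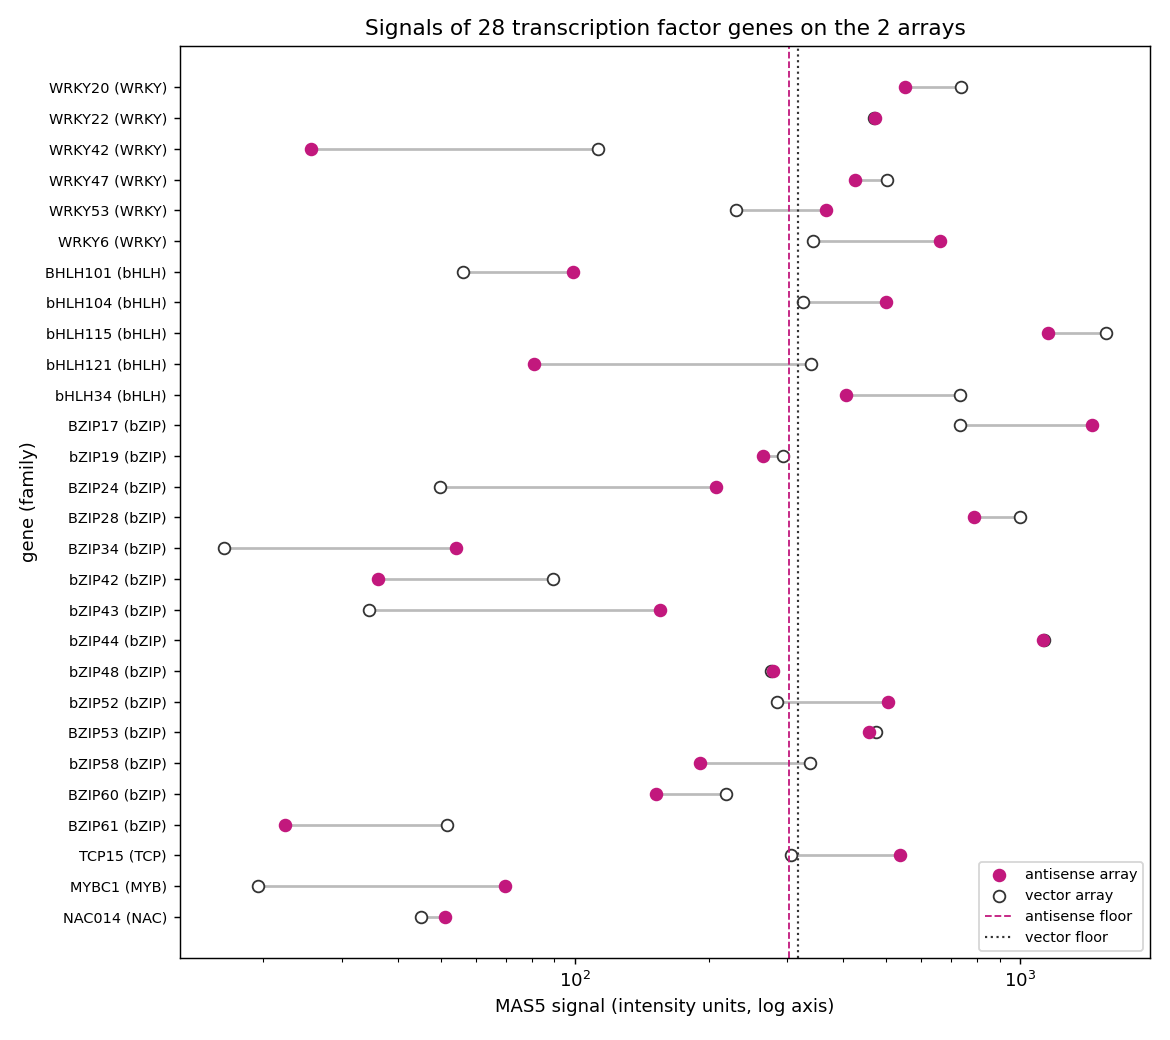
Signals of the 28 genes on a log axis, grouped by family, with filled points for the antisense array, open points for the vector array and a grey line joining both values of a gene. The broken line is the antisense floor (302.7) and the dotted line the vector floor (317.6). The widest gaps between the arrays are in genes with at least 1 signal below the floor.

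Among the WRKY genes WRKY6 stood highest. WRKY6, which represses the phosphate exporter gene PHO1 and acts in senescence, had a signal of 659.5 on the antisense array and 342.9 on the vector array, a ratio of 0.94 (1.92-fold higher). Of all genes measured on both arrays, 3.40% had a ratio as high. Its vector signal lay just above the floor.

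WRKY6 has close relatives in its subgroup, WRKY42 and WRKY47. WRKY42, also a repressor of PHO1, was below the floor on both arrays, with 25.6 on the antisense array and 112.8 on the vector array. WRKY47 stood at 426.9 on the antisense array and 501.4 on the vector array, a ratio of -0.23. Of the 3, WRKY6 was thus the one with a measured ratio of 1.5-fold or more.

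WRKY53, a regulator of the onset of leaf senescence, had 367.1 on the antisense array and 229.8 on the vector array, below the floor there, and was at least 1.16-fold higher (0.21). WRKY22, which acts downstream of immune receptors in a kinase cascade, was nearly equal, at 471 on the antisense array and 468.7 on the vector array (0.01). WRKY20 had 551.8 on the antisense array and 736.2 on the vector array (-0.42). The 5 measured WRKY genes thus went both ways, with a median of 0.01 and a range from -0.42 to 0.94. Over the 4 measured on both arrays, without the bound of WRKY53, the median was -0.11.

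All 5 bHLH members belong to the iron deficiency response. In Arabidopsis bHLH34, bHLH104 and bHLH115 are related activators that pair with each other and with bHLH121, and together they switch on BHLH101 and its relatives, which in turn drive iron uptake genes in the root. Among these activators the ratios diverged. bHLH34 had 406.6 on the antisense array and 732.9 on the vector array, a ratio of -0.85 (1.80-fold lower), and 5.44% of genes measured on both arrays had a ratio as low. bHLH104 went the other way, with 499.5 on the antisense array and 325.9 on the vector array, a ratio of 0.62 (1.53-fold higher), and 10.05% of genes had a ratio as high. Its vector signal was the nearest to the floor among members measured on both arrays. bHLH115 had 1156.1 on the antisense array and 1561.9 on the vector array, a ratio of -0.43, about the size of the SD of a single ratio. It lay beyond that SD with quantile (-0.46), loess (-0.46) and hybridization-control scaling (-0.63). With centring (-0.41) and with a pseudocount at the 25th percentile (-0.41) it lay within the SD.

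bHLH121 was measured on the vector array alone, at 339.0, and read 80.9 on the antisense array. With the antisense signal raised to the floor it was at least 1.12-fold lower (-0.16). Its own signals give -2.07, but the antisense value lies where ratios scatter widely, as described for the dim genes below. BHLH101, the gene downstream of the others, was below the floor on both arrays, at 98.9 on the antisense array and 56.2 on the vector array, so no ratio was taken for it. The 4 measured bHLH genes had a median of -0.30, with the antisense signal below the vector signal in 3 and above it in 1. Of all 7270 measured genes 3816 were lower by their own signals and 3453 higher, so no lean was drawn from 3 of 4. Over the 3 bHLH genes measured on both arrays, without the bound of bHLH121, the median was -0.43. Both bHLH medians were below those of the WRKY and bZIP genes, and the difference between families was not tested.

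The bZIP genes included the highest ratio of all members. BZIP17 and BZIP28 are anchored in the endoplasmic reticulum and released when unfolded proteins build up there, and the messenger RNA of BZIP60 is spliced under the same stress. BZIP17 had 1451.9 on the antisense array and 731.0 on the vector array, a ratio of 0.99 (1.99-fold higher), and 2.99% of genes measured on both arrays had a ratio as high. This lay just under 2-fold and passed it after centring on the median of all probe sets (1.01). BZIP28, its close relative in the same response, had 786.0 on the antisense array and 998.5 on the vector array, a ratio of -0.35, within the SD of a single ratio, though not with hybridization-control scaling (-0.54). BZIP60 was below the floor on both arrays, at 152.5 on the antisense array and 218.2 on the vector array.

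bZIP44 and BZIP53 are small bZIP proteins of the same subgroup, linked to sugar and energy supply, and BZIP53 also acts in seed maturation. bZIP44 had 1128.2 on the antisense array and 1130.3 on the vector array, a ratio of -0.003. BZIP53 had 458.4 on the antisense array and 474.3 on the vector array, a ratio of -0.05. Both were thus nearly equal on the arrays.

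Of the other measured bZIP genes, each reached the floor on 1 array. bZIP52, a relative of the stress-responsive factor VIP1, had 505.5 on the antisense array and 285.1 on the vector array and was at least 1.59-fold higher (0.67). bZIP58 had 190.9 on the antisense array and 337.3 on the vector array and was at least 1.11-fold lower (-0.16). The 6 measured bZIP genes had a median of -0.03 and ran from -0.35 to 0.99.

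TCP15, which promotes growth and restrains endoreduplication, was the single TCP member. It had 538.0 on the antisense array and 305.2 on the vector array, where it fell just short of the floor, and was at least 1.69-fold higher (0.76). TCP15 and bZIP52 were 2 bounds of 1.5-fold or more among 5 members with a bound, where 29.2% of all 2323 genes with a bound were that far apart in either direction.

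**Figure D2:**
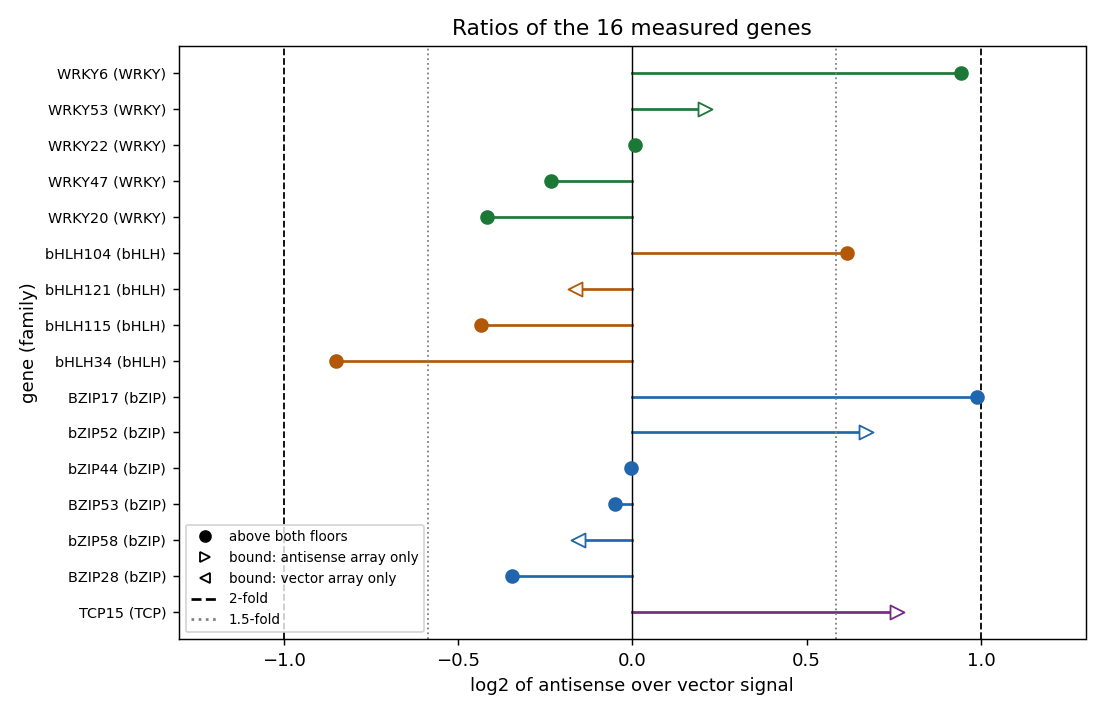
Ratios of the 16 measured genes as log2 of antisense over vector signal, grouped by family. Filled points were above both floors and open triangles are bounds pointing away from 0. Broken lines mark 2-fold and dotted lines 1.5-fold. BZIP17 at 0.99 and WRKY6 at 0.94 lie just inside the upper 2-fold line, and bHLH34 at -0.85 is the lowest.

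The 12 members below the floor on both arrays read between 22.3 and 278.5 on the antisense array and between 16.3 and 292.9 on the vector array. Nearest to the floor were bZIP19, which senses zinc supply (264.9 on the antisense array and 292.9 on the vector array), and bZIP48 (278.5 on the antisense array and 275.7 on the vector array). Both were close to equal on the arrays.

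Among the dimmer ones the signals differed widely. BZIP24, a salt stress regulator related to bZIP19, read 207.7 on the antisense array and 49.7 on the vector array. bZIP43 read 155.5 on the antisense array and 34.5 on the vector array. MYBC1, a negative regulator of freezing tolerance, read 69.7 on the antisense array and 19.4 on the vector array. These 3 were higher on the antisense array, as was BZIP34, which acts in pollen (54.0 on the antisense array and 16.3 on the vector array).

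In the opposite direction, BZIP61, a relative of BZIP34, read 22.3 on the antisense array and 51.7 on the vector array, and bZIP42 read 36.1 on the antisense array and 89.3 on the vector array. WRKY42, given above, was also lower on the antisense array. NAC014 was close to equal, with 51 on the antisense array and 45.1 on the vector array. By these own signals 7 of the 12 differed by 2-fold or more, 4 of them higher and 3 lower. Over all 6080 genes below both floors, 43.5% did so, 19.9% higher and 23.6% lower. At this brightness a difference of 2-fold is thus common among all genes, and no direction was drawn from it. With no floor at all, 4 of the 28 members were 2-fold or more higher, where 14.5% of all genes were, and 4 were 2-fold or more lower, where 17.3% of all genes were.

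**Figure D3:**
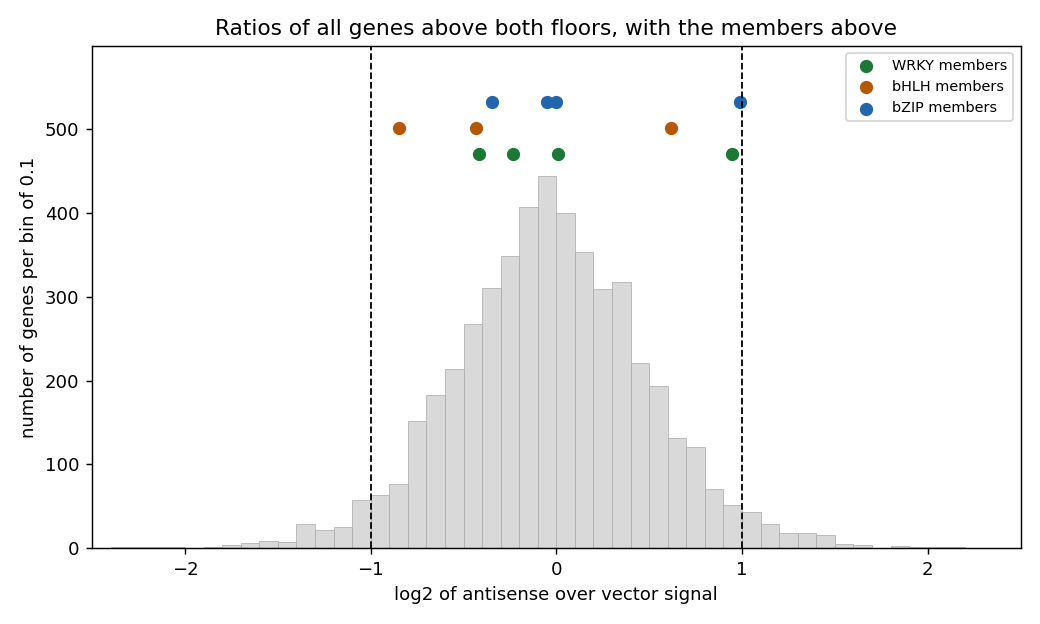
Number of genes in each bin of 0.1 of the log2 ratio of antisense over vector signal, over the 4947 genes measured on both arrays, with the 11 members measured on both placed above the bars in a row per family. Broken lines mark 2-fold. The axis stops at 2.5 each way, which leaves out the few widest ratios. The members lie within the bulk of the genes, and BZIP17 and WRKY6 sit at its upper edge.

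Other transcription regulator families were searched by symbol in the same way, 20 in all, of which 8 had members: 40 AGAMOUS-LIKE MADS-box genes and 16 others (IAA, ARR, LBD, EIN3, SCL, YAB and HAT). Without the MADS-box genes 12 of 16 were measured, with 0 past 2-fold either way (3.12% of all measured genes were higher and 3.93% lower) and a median of -0.18. They ran from ARR15, a cytokinin response regulator, at -0.82 to IAA18, an auxin response repressor, at 0.78. Of the MADS-box genes 9 of 40 were measured, or 22.5%, against 54.5% of all genes. With them 21 of 56 were measured, with 0 past 2-fold and a median of -0.16. The 16 members of the main families, at a median of -0.03, lay closer to that of all measured genes (-0.05), and the difference between both sets was not tested.

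Scaling to added controls lowers every ratio given here and turns 1 sign among the members. The 18 hybridization controls, bacterial and phage transcripts added to the hybridization, had a median ratio of 0.19, the amount by which each ratio is then lower. The median over all measured genes is then -0.24 and that over the 16 members -0.22, and of all measured genes 1.64% are 2-fold or more higher and 7.19% lower. bHLH34 passes 2-fold under this scaling (-1.04), BZIP17 stands at 0.80 and WRKY6 at 0.75, and WRKY22 turns negative (-0.19).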

How the data were processed

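The deposited values are signal intensities, 1 per probe set and array for 22810 probe sets, made with MAS5 per the submitters' processing notes. Its version is not given in the sources used here. Trimmed means computed here from the deposited values, leaving out 2% at each end, were 500.04 on both arrays. Neither detection calls nor scanner files were used. Genes were named from GEO's platform annotation, which gives 1 gene for 13513 probe sets, several for 503 and none for 8794. With several probe sets for a gene, that with the highest mean log2 signal was used. The floor was the 50th percentile of each array over 22746 non-control probe sets. No p-value was computed, since each group holds 1 sample, and counts and medians were set beside those of all genes. A family median needed 3 measured members. The ratio calculation was tested on simulated data in which bright probe sets were shifted by a known amount. Shifts across the floor, which give bounds, were not simulated.

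Genes named were those past 1.5-fold or 2-fold, the highest, lowest and brightest of each family, and all members of small families. The remaining members are given so that every gene is accounted for. The members and lists were chosen with earlier results of these data known. No reference sequences were used here. Alternatives were other floors, a pseudocount, centring, quantile, loess (span 0.4) and hybridization-control scaling, other thresholds and other choices of probe set. Scripts ran under Python 3.11.15, with pandas 2.3.3 and numpy 2.4.6 for the values, statsmodels 0.14.6 for loess, scipy 1.17.1 for ranks and trimmed means, and figures by matplotlib 3.10.9.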

Additional observations from a re-analysis of the deposited data

How the results depend on the processing

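No paired analysis was possible because there was 1 sample in a group, and for the same reason none was left out. No member was past 2-fold at the settings reported. A floor at the 25th percentile gave 1 higher and 1 lower, and so did a pseudocount at that percentile. Having no floor gave 4 and 4, of which all but bHLH121 were below both floors. The lower gene with the floor and with the pseudocount was bHLH121, at -1.89 and -1.34. The count was 1 higher with centring (BZIP17, 1.01) and with loess (WRKY6, 1.02), 1 lower with hybridization-control scaling (bHLH34, -1.04), and 5 and 1 at 1.5-fold. Of all measured genes 3.29% were 2-fold or more higher and 3.58% lower with centring, and 3.54% and 3.38% with loess. With hybridization-control scaling the shares were 1.64% and 7.19%, so 1 member among 16 is near the background. No share over all genes is given for the 25th percentile floor or the pseudocount. The count of members stayed at 0 and 0 with quantile normalization, at 3-fold and for genes above both floors alone. The 16 measured members were 7 when the floor was set at the 75th percentile and 28 without one. The median over members, -0.03, was -0.24 with the 75th percentile floor, and with hybridization-control scaling it and the bZIP median were both -0.22. It reached at most 0.01 under the alternatives run. The bHLH median ran from -0.49 to -0.27 over the alternatives that gave one, and the WRKY median from -0.19 to 0.08. Choice of probe set could not change a member, as each has 1, and no member was dropped as misnamed. For the 16 measured members, the 8 settings that could change a gene's ratio gave 119 values. Of these 113 kept their side of 2-fold, 6 passed it (bHLH121 in 3 settings, then BZIP17, WRKY6 and bHLH34), and 6 changed sign, those of WRKY22, bZIP44 and BZIP53, all of which lie near 0. Signals near or below the floor and the number of arrays limit what these ratios can show.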

Other observations

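Lists of genes that work beside these regulators were made after the members' values were seen. Of 4 genes matched by symbol for iron uptake, storage and signalling, 3 were measured, and none of these 3 was past 1.5-fold. Of all measured genes 11.2% were higher and 15% lower by that much, so that none among 3 is near the background. ILR3, a relative of bHLH104 and bHLH115, had 4198.5 on the antisense array and 4589.4 on the vector array (-0.13). PYE, a repressor in the same iron response, had 844.3 on the antisense array and 787.2 on the vector array (0.10). FRO1 had 901.3 on the antisense array and 1044.2 on the vector array (-0.21). It was matched by its symbol alone, and whether this probe set reads a ferric reductase gene was not established, so it may not be an iron gene.

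Of 6 genes matched for protein folding in the endoplasmic reticulum, 5 were measured, with a median of -0.07 and a range from -0.30 to 0.18. Among them S1P, named for the protease that releases BZIP17 and BZIP28 from the membrane, had 683.4 on the antisense array and 715.6 on the vector array (-0.07), and the calreticulin gene CRT1b had 4486.7 on the antisense array and 5004.2 on the vector array (-0.16). The 3 genes matched for metal transporters of the ZIP and MTP families ran from 0.04 to 0.13. Of 2 senescence genes matched, SAG29 stood at -0.26, with 490.3 on the antisense array and 586.8 on the vector array, and SAG101 was below the floor on both. No phosphate transport gene was matched.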
